A study of Rattus norvegicus with 50 samples.

Results

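Rat mammary glands were examined for 10 epithelial genes, Mal2, Rab25, Rnf128, Kcnk1, Slc44a4, Tnfrsf21, Duoxa1, Aldoc, Mboat1 and C14h4orf19, out of 18166 genes with a named probeset on the array. They were chosen by their array signals in rats given diethyl phthalate (DEP), a solvent of cosmetics and plastics, which were lower than in vehicle controls among both parous and nulliparous animals. The DEP difference is therefore described here without a test. A gene was called where its adjusted p was under 0.25 and it changed 1.5-fold or more. By that measure they are 10 of 261 genes lower with DEP in both parities, which is 1.95% of the 13413 genes above the intensity minimum. Each had 1 probeset naming that gene alone, and all 10 lay above the minimum.

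RNA of the fifth caudal mammary glands of 50 female Sprague-Dawley rats was hybridised, 1 array per rat, in 10 groups of 5 rats. Labels DEP, MIX, MPB, TCS and OIL stand for diethyl phthalate, a mixture of diethyl phthalate with methyl paraben and triclosan, methyl paraben alone, triclosan alone and the olive oil vehicle of the controls. Each treatment ran from postnatal day (PND) 1 to PND 180 in 5 parous and 5 nulliparous rats, which were sacrificed at PND 181, and the stated protocol for DEP and vehicle gave them through the dams' milk until weaning at PND 28 and by gavage afterwards. Parous rats had been mated at PND 97, and their pups were weaned by sacrifice. Rats were killed at any stage of the estrous cycle, and single rats are named by treatment, parity (par or null) and number. The doses of methyl paraben, triclosan and the mixture are not given in the sources used here, so MIX and DEP rats cannot be compared at a known matched dose.

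Luminal cells of the mammary gland are polarised: their apical surface faces the duct lumen and receives milk components, transporters and channels through dedicated vesicles, while tight junctions part it from the basolateral surface. Mal2 and Rab25 belong to this vesicle machinery, as a proteolipid of apical transcytosis and as an epithelial member of the Rab11 family of recycling GTPases. The other genes are less uniform. Rnf128 is a transmembrane ubiquitin ligase best known from T cells, Kcnk1 a background potassium channel, Slc44a4 a choline transporter-like protein of mucosal epithelia, Tnfrsf21 a receptor with a death domain, and Duoxa1 the maturation factor that lets dual oxidase reach the cell surface. Aldoc, a cytosolic aldolase of glycolysis, and Mboat1, an acyltransferase of membrane lysophospholipids, are not apical proteins by this background. C14h4orf19 is named for the place of its human counterpart. An array of whole-gland RNA gives no position in the cell, and it cannot tell fewer epithelial cells from less RNA per epithelial cell.

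Because the 10 genes moved together from rat to rat, their promoter windows were searched for short motifs. RefSeq (build GRCr8) gave a window of 300 bases, 250 before and 50 after the gene's start, for 8 of the 10, not Mal2 and Kcnk1. The hypoxia response core ACGTG stood in 3 of these 8 windows (Tnfrsf21, Aldoc and C14h4orf19), against 19.25% of 33469 rat windows, on either strand. Rab25 held the CREB palindrome TGACGTCA, found in 1.829% of all windows, and upstream of it, on the opposite strand, the grainyhead-like motif AACNGGTT, found in 2.1%. The windows of these 4 genes are shown 5′ to 3′ on the gene's own strand, with these matches in capitals.
Rab25 (chr2:176304172-176304471, minus strand): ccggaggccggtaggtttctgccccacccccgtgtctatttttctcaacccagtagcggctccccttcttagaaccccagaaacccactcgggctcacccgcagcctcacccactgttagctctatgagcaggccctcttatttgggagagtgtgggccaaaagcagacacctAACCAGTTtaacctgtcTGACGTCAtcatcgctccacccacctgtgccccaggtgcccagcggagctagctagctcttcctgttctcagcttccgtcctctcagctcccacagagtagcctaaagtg
Tnfrsf21 (chr9:25451274-25451573, minus strand): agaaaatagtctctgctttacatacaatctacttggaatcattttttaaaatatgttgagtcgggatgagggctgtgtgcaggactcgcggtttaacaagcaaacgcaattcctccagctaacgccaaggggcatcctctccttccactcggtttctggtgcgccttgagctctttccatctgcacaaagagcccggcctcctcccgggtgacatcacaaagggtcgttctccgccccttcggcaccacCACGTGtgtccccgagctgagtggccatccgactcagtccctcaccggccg
Aldoc (chr10:63715294-63715593, plus strand): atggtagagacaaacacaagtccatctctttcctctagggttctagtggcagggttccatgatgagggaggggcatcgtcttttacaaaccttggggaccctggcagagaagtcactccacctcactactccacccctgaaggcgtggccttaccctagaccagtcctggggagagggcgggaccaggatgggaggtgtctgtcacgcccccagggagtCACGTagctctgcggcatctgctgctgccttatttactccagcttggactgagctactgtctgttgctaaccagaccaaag
C14h4orf19 (chr14:44831564-44831863, minus strand): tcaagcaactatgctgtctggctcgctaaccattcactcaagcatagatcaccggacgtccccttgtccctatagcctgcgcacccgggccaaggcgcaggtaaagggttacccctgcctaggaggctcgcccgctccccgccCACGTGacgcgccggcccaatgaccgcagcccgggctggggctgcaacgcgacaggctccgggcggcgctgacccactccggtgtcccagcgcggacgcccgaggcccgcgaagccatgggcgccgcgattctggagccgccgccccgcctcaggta
Aldoc holds the core on the opposite strand, where it reads CACGT in the line shown. In Tnfrsf21 and C14h4orf19 the core lies inside the palindrome CACGTG and matches on both strands. Mboat1 alone held the ETS motif CCGGAAG (8.745% of all windows), and Rab25 alone the androgen receptor motif AGAACA (20.68%, not capitalised). The FOXA motif TGTTTAC and the TATA box TATAAA were found in 0 of 8 windows, against 3.78% and 14.22% of all windows. No motif was shared by all 8 windows.

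Signals differed by RNA extraction kit, which equals the batch label in every rat, so kit and batch cannot be told apart. The Zymo kit had served for 24 rats and the Promega kit for 26. Each DEP group held 4 Zymo rats and 1 Promega rat, and every other group 2 Zymo and 3 Promega rats. Zymo minus Promega (limma), 23% of genes were called higher and 29.1% called lower, and 85.4% passed at an unadjusted p under 0.05, as did 8 of the 10. Among the called genes were Rab25, higher by 1.03, and Tnfrsf21, Slc44a4 and Mboat1, which fell by 1.04, 0.74 and 0.67 on the log2 scale. Kit was therefore an additive term in the comparisons, apart from the fits within 1 kit and those run without the term, and signals below are log2 values after that difference was removed, set midway between the kits. Medians of the deposited arrays lay between 6.70 and 6.91.

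In DEP-treated rats the 10 genes were low together. Among the 10 groups, mean signals of all 10 genes were lowest in parous DEP rats, followed by nulliparous DEP rats, and every DEP rat lay below every control rat of its parity for 10 of 10 genes. By the same measure 4.42% of all genes separated DEP from control rats among parous and 3.63% among nulliparous animals, and nothing is read from this count, since those rats chose the genes. DEP minus control differences ran between -1.65 (Mal2) and -1.16 (Mboat1) in parous rats, with a median of -1.51, and between -1.22 (Slc44a4) and -0.94 (Tnfrsf21) in nulliparous rats, with a median of -1.07, beside medians over all genes of -0.03 and -0.04. As fold changes these are 3.13- to 2.24-fold lower with DEP in parous and 2.33- to 1.92-fold lower in nulliparous rats. Within the Promega rats alone and within the Zymo rats alone, the DEP mean was lower for 10 of 10 genes in each parity. Each parity had only 1 DEP rat with the Promega kit. These rats are also part of those that chose the genes, so the shared sign is a description.

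**Figure D1:**
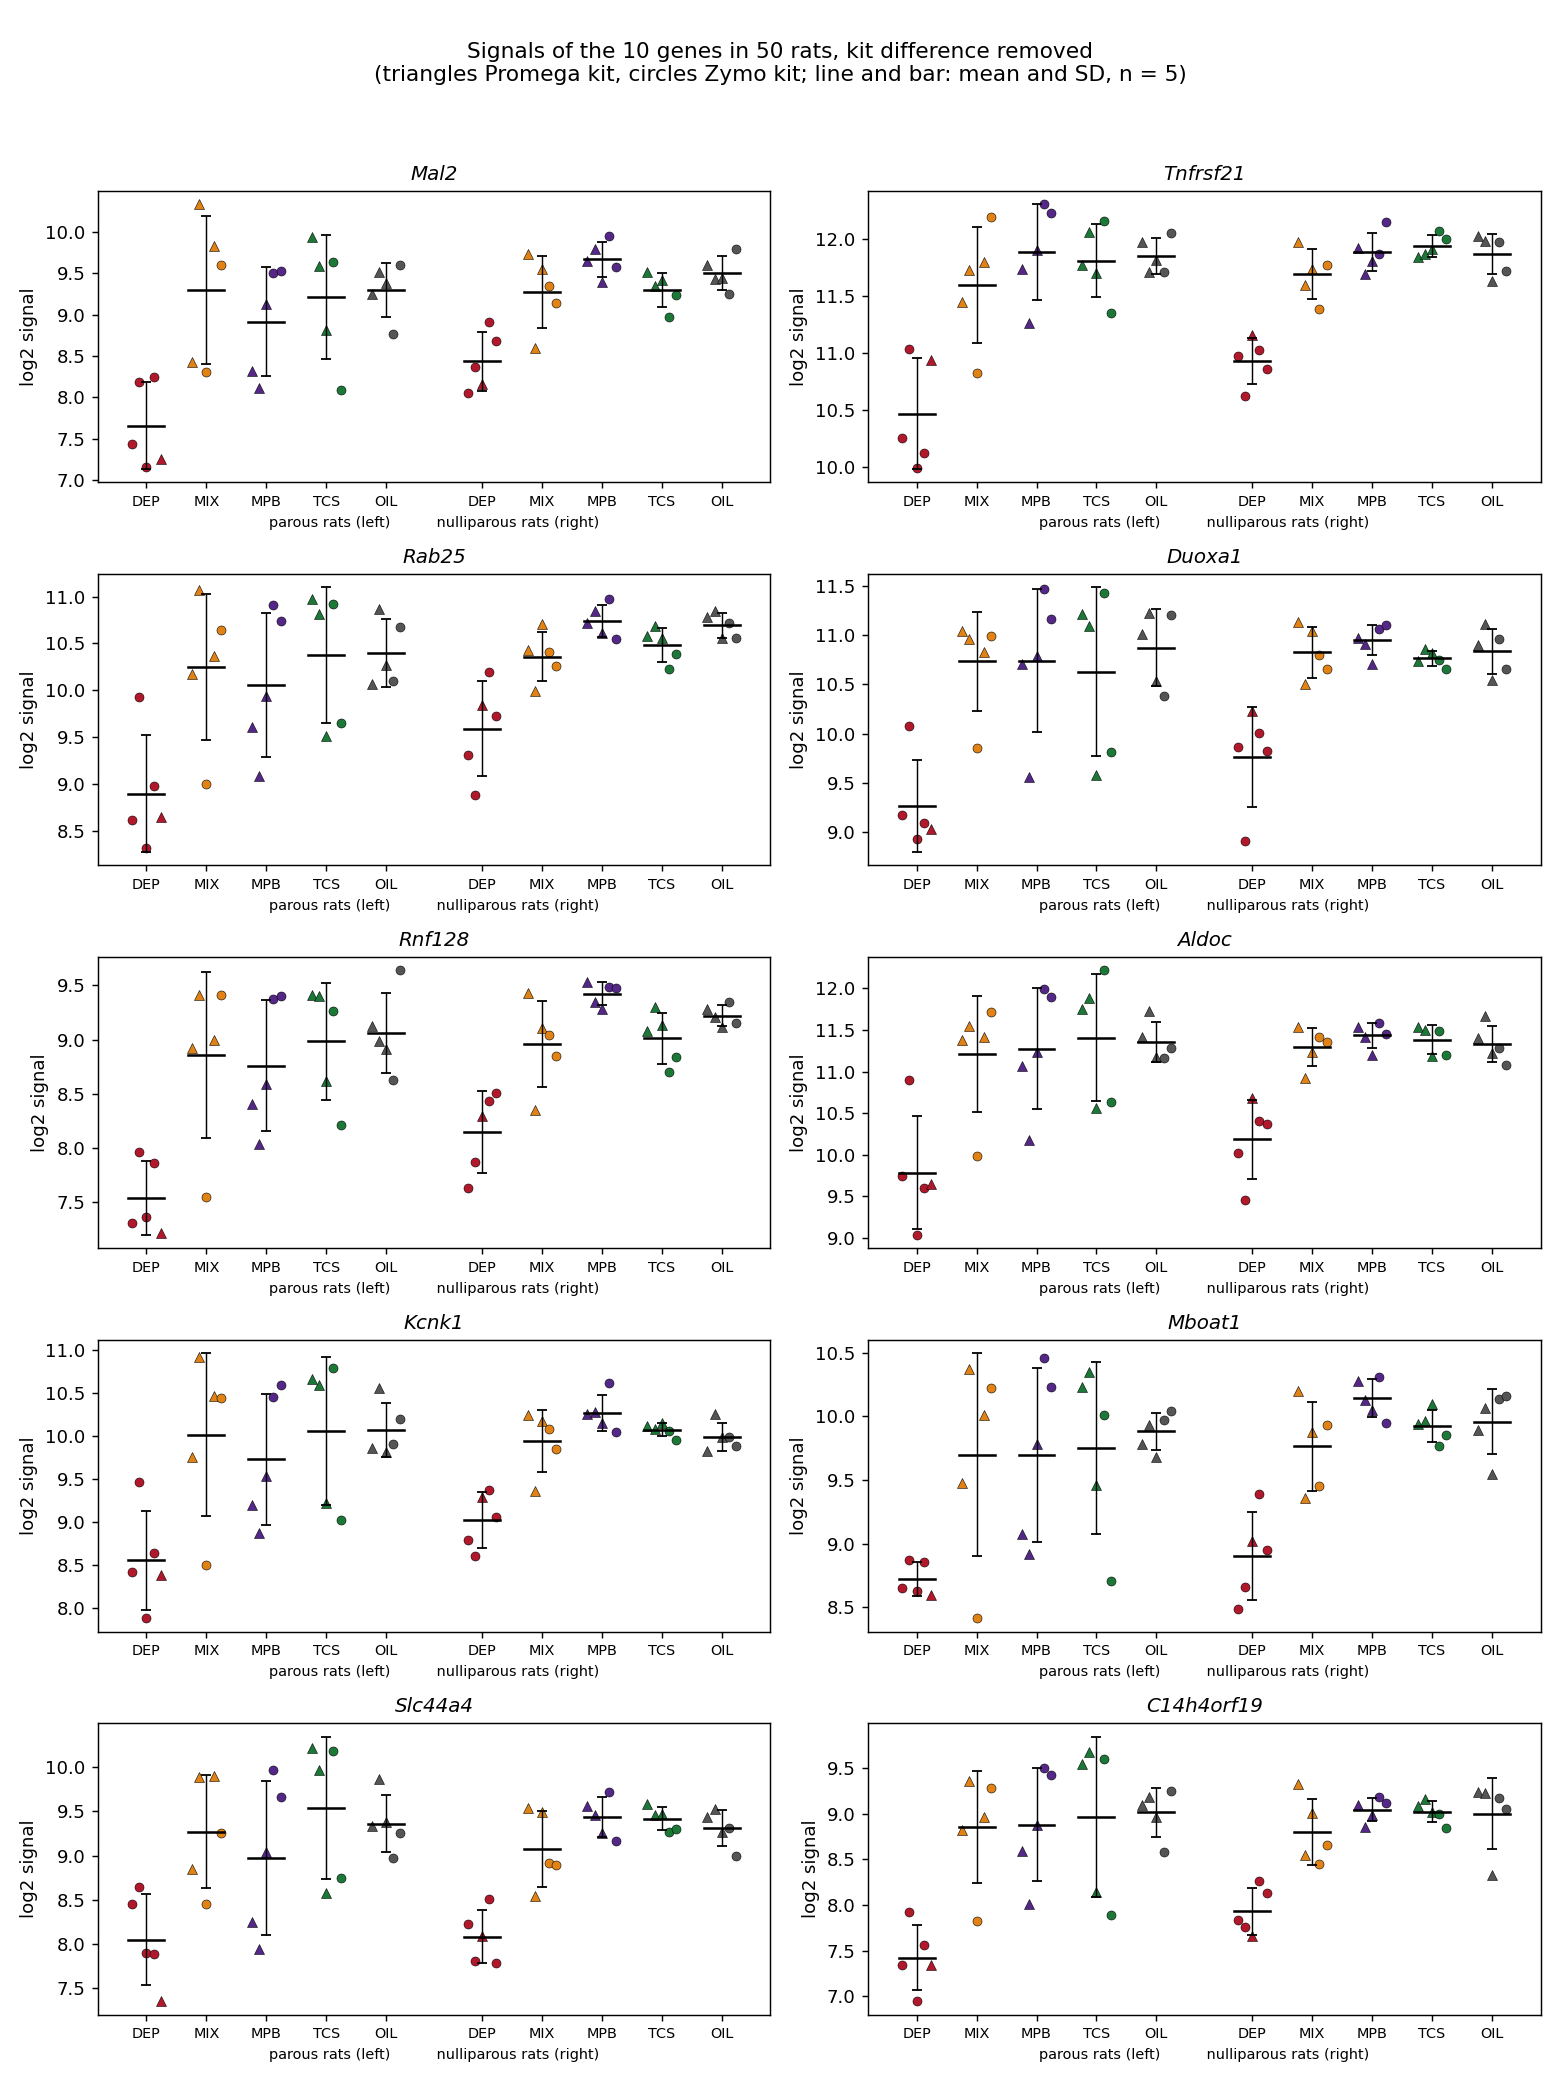
Log2 signal of each gene (1 panel each, y axis) in every rat of the 5 parous and 5 nulliparous groups (x axis), with the kit difference removed; triangles are Promega and circles Zymo rats, and lines and bars give the mean and SD of 5 rats. Means of DEP rats lie lowest in each parity, while parous MIX, MPB and TCS groups each hold rats in or near the DEP range, such as the MIX rat at 8.99 for Rab25. For Mboat1, MIX_par_339, at 8.41, lies below every parous DEP rat.

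Among the vesicle genes, Rab25 shows the pattern in full. Its log2 signals were 8.62, 9.93, 8.31, 8.97 and 8.65 in parous DEP rats, and 10.06, 10.87, 10.27, 10.10 and 10.68 in parous controls. In nulliparous rats they were 9.30, 8.88, 9.84, 10.19 and 9.73 with DEP, and 10.78, 10.84, 10.56, 10.72 and 10.56 in controls. DEP_par_38, at 9.93, lay just under the lowest parous control, at 10.06. The parous MIX rats read 10.17, 11.07, 8.99, 10.36 and 10.65, the MPB rats 9.61, 9.08, 9.94, 10.91 and 10.74, and the TCS rats 10.98, 10.81, 9.51, 10.92 and 9.65. These 3 groups overlapped each other almost completely, and each held rats at control levels and at least 1 rat below every control. Nulliparous rats were tighter, with 10.43, 9.99, 10.70, 10.40 and 10.26 in MIX, 10.72, 10.85, 10.61, 10.97 and 10.55 in MPB and 10.58, 10.68, 10.56, 10.22 and 10.38 in TCS rats.

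Mal2 had the largest DEP difference among parous rats (3.13-fold lower). Its means were 7.66 ± 0.52 in parous DEP rats and 9.30 ± 0.33 in parous controls, and 8.43 ± 0.36 in nulliparous DEP rats and 9.50 ± 0.21 in nulliparous controls (SD, n = 5 each). Mixture rats averaged 9.30 ± 0.90 when parous and 9.27 ± 0.44 when nulliparous, so the parous MIX mean lay 0.0037 below its control mean, but the single parous MIX rats ran over 8.30 to 10.34. Methyl paraben gave the lowest mean outside DEP, 8.92 ± 0.66 in parous rats, and also the highest, 9.67 ± 0.21 in nulliparous rats. Rnf128 averaged 7.54 ± 0.34 in parous DEP rats and 9.06 ± 0.37 in their controls, and 8.15 ± 0.38 in nulliparous DEP rats and 9.22 ± 0.09 in theirs. MIX_par_339, at 7.54, reached the DEP range for this ligase, while the other 4 MIX rats lay at 8.92 or above.

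Of the membrane proteins, Slc44a4 had the largest DEP difference among nulliparous rats (2.33-fold lower). Signals of this transporter were 8.23, 7.81, 8.09, 8.51 and 7.78 in nulliparous DEP rats and 9.44, 9.53, 9.27, 9.31 and 9.0 in nulliparous controls, and 8.46, 8.64, 7.90, 7.88 and 7.35 in parous DEP rats and 9.33, 9.87, 9.38, 8.97 and 9.25 in parous controls. Nulliparous MIX rats read 9.54, 8.54, 9.49, 8.92 and 8.90, MPB rats 9.56, 9.46, 9.26, 9.72 and 9.16 and TCS rats 9.59, 9.46, 9.47, 9.27 and 9.30. As many as 3 of the 5 MIX rats thus lay below every nulliparous MPB and TCS rat. Parous MIX rats read 8.84, 9.89, 8.45, 9.90 and 9.25, MPB rats 8.25, 7.95, 9.04, 9.97 and 9.67 and TCS rats 10.22, 9.96, 8.58, 10.18 and 8.75, and here the lowest rats had been given methyl paraben.

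Kcnk1 averaged 8.56 ± 0.58 in parous DEP rats and 10.07 ± 0.31 in parous controls, and 9.02 ± 0.32 in nulliparous DEP rats and 9.99 ± 0.17 in nulliparous controls. Group means without DEP lay between 9.73 and 10.27. Among parous rats its SD was 0.94 with the mixture, the widest of any gene in any group, and among nulliparous rats it was 0.073 with triclosan, the narrowest. Tnfrsf21 varied least of the 10 within groups, with a residual SD of 0.31. This receptor read 10.25, 11.03, 9.99, 10.12 and 10.94 in parous DEP rats and 11.98, 11.71, 11.82, 11.71 and 12.05 in parous controls. Parous MIX rats read 11.45, 11.73, 10.83, 11.80 and 12.19, of which 2 lay below every control. Levels are not compared between genes here, since array probes differ in brightness.

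Duoxa1 averaged 9.27 ± 0.46 in parous DEP rats and 10.87 ± 0.39 in parous controls, and 9.77 ± 0.50 in nulliparous DEP rats and 10.83 ± 0.23 in nulliparous controls. Its 5 nulliparous DEP rats ran over 8.91 to 10.23, below all 15 nulliparous MIX, MPB and TCS rats. Aldoc read 9.75, 10.89, 9.03, 9.59 and 9.64 in parous DEP rats and 11.42, 11.73, 11.18, 11.16 and 11.28 in parous controls. In nulliparous rats this enzyme read 10.01, 9.45, 10.68, 10.40 and 10.37 with DEP and 11.40, 11.67, 11.22, 11.29 and 11.08 in controls. The parous MIX rats read 11.37, 11.55, 9.98, 11.42 and 11.71, and 4 of these 5 lay within the range of the controls. Its 8 group means outside DEP spanned 0.23, the narrowest of the 10 genes, and those of Mal2 spanned 0.75, the widest.

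Mboat1 had the smallest DEP difference among parous rats (2.24-fold lower). Its parous DEP rats were closely grouped, at 8.65, 8.87, 8.63, 8.86 and 8.60, against 9.78, 9.93, 9.68, 9.97 and 10.04 in parous controls. Still lower than all of them was 1 parous MIX rat, at 8.41, in a group that otherwise reached 10.37. C14h4orf19 averaged 7.42 ± 0.36 in parous DEP rats and 9.01 ± 0.27 in parous controls, and 7.93 ± 0.26 in nulliparous DEP rats and 9.0 ± 0.38 in nulliparous controls, among which 1 rat read 8.33 and the other 4 between 9.05 and 9.23.

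The mixture contains diethyl phthalate and the single chemicals methyl paraben and triclosan do not, so MIX rats were set against MPB and TCS rats, none of which had a part in choosing the genes. In parous rats 0 of 10 genes were called, as were 0% of all genes, lower or higher. At an unadjusted p under 0.05, 0 of 10 genes passed, against 6.69% of all genes. Differences were small and of both signs, between -0.25 (Tnfrsf21, 95% interval -0.59 to 0.09, adjusted p = 0.783) and 0.23 (Mal2, 95% interval -0.32 to 0.79, adjusted p = 0.874), with a median of -0.0025 (limma with Benjamini-Hochberg adjustment over 13413 genes). Intervals of the 10 genes ran between -0.68 and 0.79.

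In nulliparous rats all 10 genes had lower means in MIX than in MPB and TCS rats, by 0.35 (Slc44a4) to 0.03 (Duoxa1), with a median difference of -0.23 beside -0.02 over all genes. Again 0 of 10 were called, as were 0% of all genes, and 0 of 10 passed at an unadjusted p under 0.05, against 0.805% of all genes. Slc44a4 differed by -0.35 (95% interval -0.89 to 0.20), Mboat1 by -0.27 (95% interval -0.75 to 0.21) and Rnf128 by -0.26 (95% interval -0.73 to 0.21), each with an adjusted p of 1 by limma. The shared sign is not 10 separate results, because the genes varied together between rats. In both parities, 0 of 10 genes had all 5 MIX rats below the 10 MPB and TCS rats, a separation shown by 0.0224% of genes in parous and 0.0298% in nulliparous rats. The MIX difference was not shown to depend on parity: parous minus nulliparous, it was largest for Mal2, 0.45 ± 0.39 (SE, adjusted p = 0.997 by limma), and 0 of 10 genes were called.

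**Figure D2:**
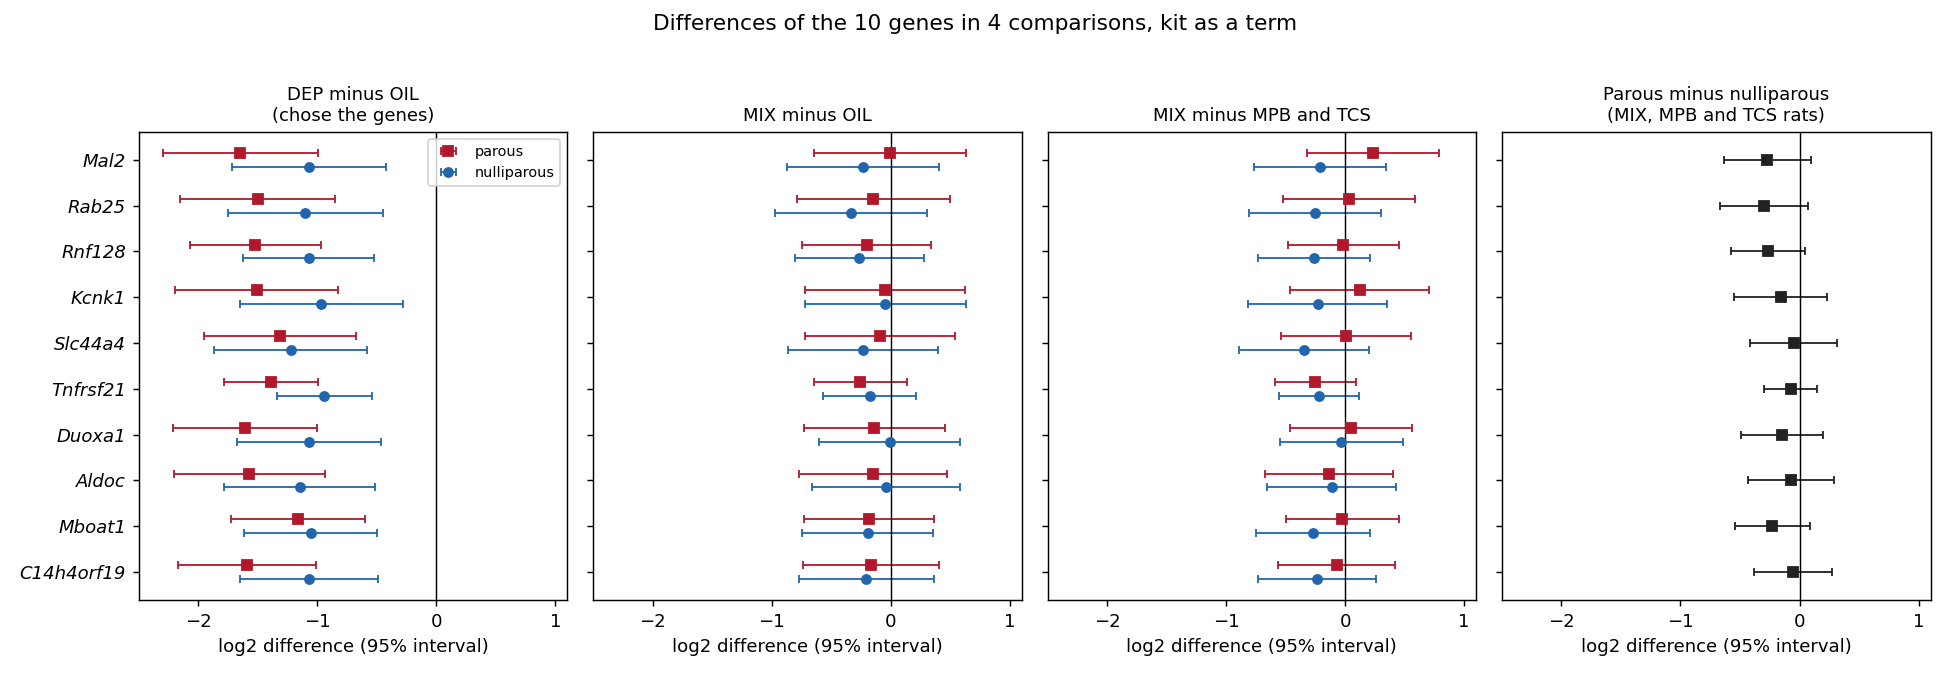
Log2 differences of the 10 genes (y axis) with 95% intervals (x axis) in 4 comparisons, with kit as a term; red squares are parous and blue circles nulliparous rats, and the black squares are parous minus nulliparous rats. DEP minus OIL lies between -1.65 and -0.94. Its intervals are drawn as description and are no test, since this comparison chose the genes. Every interval of the other 3 panels contains 0.

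Set against the control rats, which also served in choosing the genes, the mixture and the single chemicals gave differences within the spread of the rats. Medians of the 10 differences were -0.15 in parous and -0.20 in nulliparous MIX rats, -0.24 and 0.12 in MPB rats, and -0.04 and -0.0074 in TCS rats. No gene of the 10 was called in any of these 6 comparisons (0 of 10 also at an unadjusted p under 0.05 in each, limma), and among all genes 1 was called in 1 of them, higher in parous MPB rats (0.00746%). At unadjusted p under 0.05, 3.91% of all genes passed in parous and 1.36% in nulliparous MIX rats, 1.88% and 2.54% in MPB rats, and 2.89% and 5.18% in TCS rats. With all rats, MIX minus control differences were below 0 for 10 of 10 genes in each parity, the largest being -0.25 for Tnfrsf21 in parous (95% interval -0.64 to 0.14) and -0.34 for Rab25 in nulliparous rats (95% interval -0.97 to 0.30). Without MIX_par_339 only 1 of 10 parous MIX differences was below 0, with a median of 0.15, and with Promega rats alone 2 of 10 were. Methyl paraben differed in sign between parities for 9 of 10 genes, with all 10 above controls in nulliparous rats and 9 below in parous rats. This difference between parities was not called for any gene, and without MPB_par_139 the parous count was 5 below, with a median of -0.04, while within the Zymo rats 0 of 10 parous differences were below 0. Side by side, DEP minus MIX differences had medians of -1.39 in parous and -0.86 in nulliparous rats. In nulliparous rats 5 genes, Slc44a4, Tnfrsf21, Duoxa1, Aldoc and C14h4orf19, had all 5 DEP rats below all 15 MIX, MPB and TCS rats, and in parous rats 0 did, beside 1.18% and 0.201% of all genes. Nothing is read from these counts, since the DEP signals chose the genes.

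The parous mixture comparison differed between the kits. Leaving out the kit term could not change its median of -0.0025, since each compared group held 3 Promega and 2 Zymo rats. With the 9 Promega rats of that comparison, MIX minus MPB and TCS had a median of 0.41 over the 10 genes, and 1 of 10 was called, Kcnk1, higher by 0.70 (adjusted p = 0.199, limma), among 448 genes called higher and 247 lower. With the 6 Zymo rats the median was -0.57, all 10 were lower, and 0 were called. The 2 MIX rats of the Zymo kit were unlike each other: MIX_par_339 was lowest of its group for 10 of 10 genes, and MIX_par_341 highest for 3. Without MIX_par_339 the median over both kits was 0.30, so kit and single rats cannot be told apart here. In nulliparous rats the medians were -0.24 within Promega and -0.20 within Zymo rats. For methyl paraben against parous controls the median was -0.64 within Promega and 0.45 within Zymo rats, with 0 genes of the 10 called in either.

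The parous MIX, MPB and TCS groups were widely spread. Within the parous MIX, MPB and TCS groups the SD of a gene was 2.40 (Rnf128) to 3.89 (Aldoc) times that within the nulliparous groups, from 15 rats each. The ratio was at least 2 for 10 of 10 genes and for 10.2% of all genes, whose median ratio was 1.33; no test was made of this description, which was chosen after the values were seen. Rab25 had an SD of 0.76 in parous and 0.21 in nulliparous rats, and Tnfrsf21, the least variable, 0.42 and 0.17. Median SDs over the 10 genes were 0.73, 0.70 and 0.76 in parous MIX, MPB and TCS rats, 0.50 in parous DEP rats and 0.32 in parous controls.

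**Figure D3:**
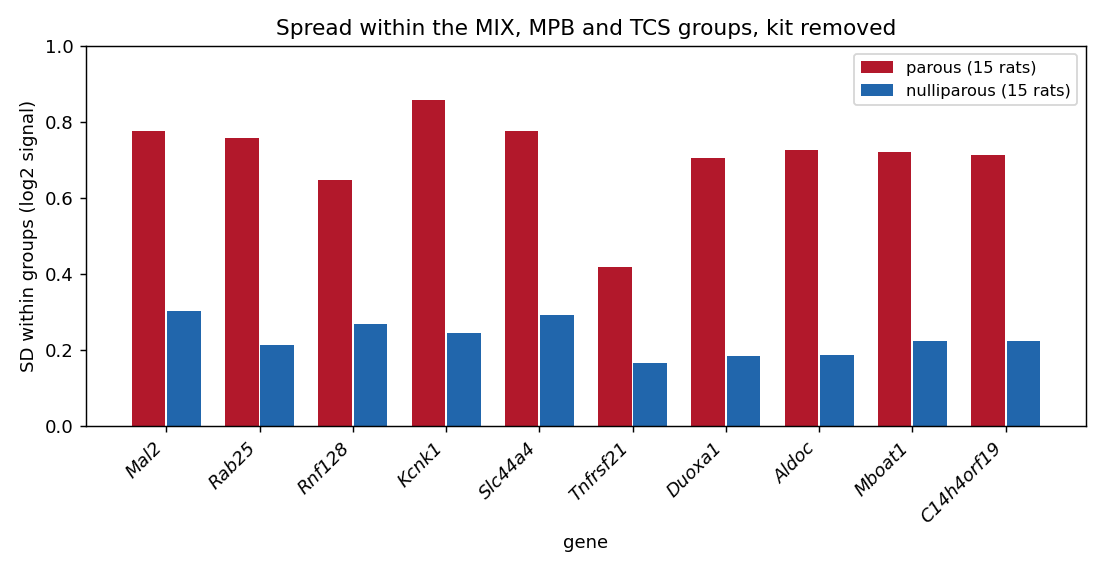
SD of the log2 signal within the MIX, MPB and TCS groups (y axis, kit difference removed) for each gene (x axis), with parous rats in red and nulliparous rats in blue. Every parous bar is at least 2.40 times its nulliparous neighbour, with the tallest for Kcnk1, at 0.86.

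Single parous rats were low or high for most of the 10 genes together. The share of all genes below the controls was not computed for single rats, so the counts below are not shown to be particular to the 10. They are not separate results either, because the 10 genes varied together. MIX_par_339, MPB_par_139 and TCS_par_243, all parous, lay below every parous control for 10 of 10 genes, TCS_par_239 for 9 and MPB_par_137 for 7. Averaged over the 10 genes, their log2 signals were 8.87, 9.0, 9.21, 9.42 and 9.50, against 8.21 to 9.30 in parous DEP rats and 9.82 to 10.36 in parous controls. High rats lay less far from their groups: MPB_par_142 stood 0.70, MPB_par_143 0.60 and MIX_par_338 0.58 above their group means. MIX_par_339, MPB_par_139 and TCS_par_243 stood at -1.11, -0.89 and -0.86 from theirs. Among nulliparous MIX, MPB and TCS rats the lowest mean was that of MIX_null_328, at 9.58, which lay below every nulliparous control for 9 genes. At the other end, DEP_par_38 averaged 9.30, and its 4 group mates 8.21 to 8.68. DEP rats of both parities lay below every control of their parity for 10 of 10 genes in 10 of 10 rats. The same separation was shown by 4.42% of all genes in parous and 3.63% in nulliparous rats. Nothing is read from it, since those rats chose the genes.

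Parity itself was tested in the 30 MIX, MPB and TCS rats. Means were lower in parous than in nulliparous rats for 10 of 10 genes, by 0.30 (Rab25) to 0.05 (Slc44a4), with a median difference of -0.15, and 0 of 10 were called, beside 0.403% of all genes called lower and 0.239% called higher. The smallest adjusted p was 0.412 (Rnf128, difference -0.26, 95% interval -0.58 to 0.05, limma), and 0 of 10 passed at an unadjusted p under 0.05, against 15.8% of all genes. Without MIX_par_339 the median difference was -0.05, and 7 of 10 genes were lower.

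The 10 genes varied together. After treatment, parity and kit were removed, Pearson's r between pairs of genes over the 30 MIX, MPB and TCS rats ran between 0.71 (Slc44a4 with Tnfrsf21) and 0.97 (Rab25 with Kcnk1), with a median of 0.90 over 45 pairs. Tnfrsf21 stood furthest from the rest, with a mean r of 0.80, and Kcnk1 nearest, with 0.91. These points share arrays and glands, so r describes how the signals moved from rat to rat and carries no test.

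**Figure D4:**
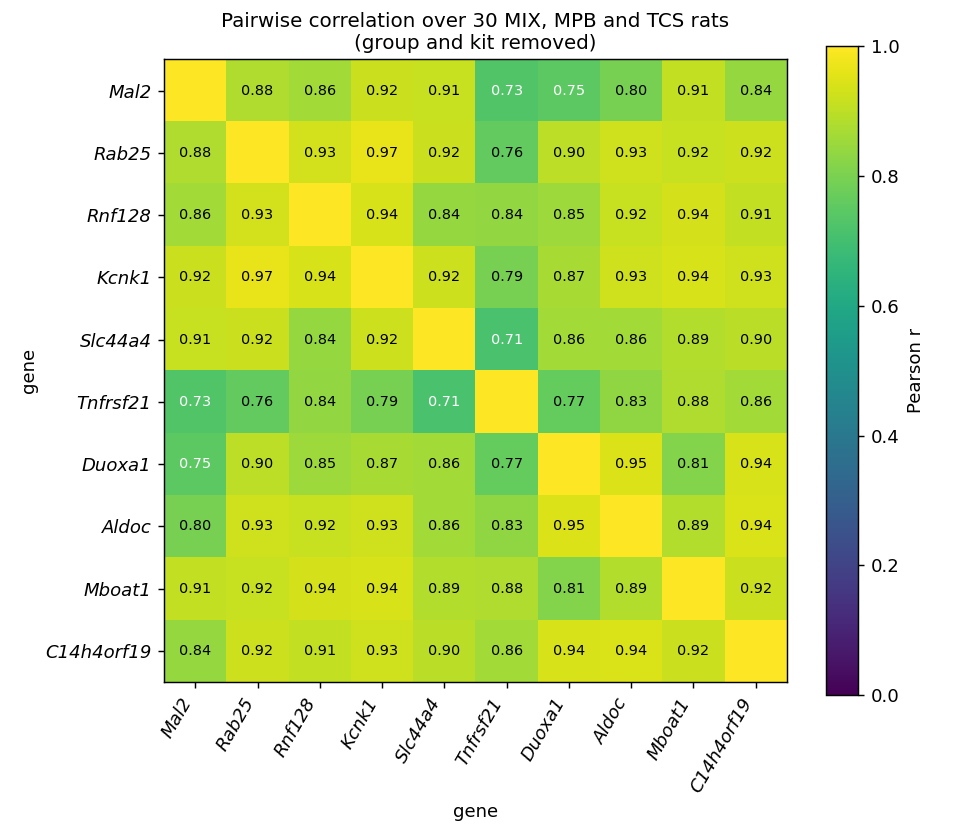
Pearson's r for each pair of the 10 genes (both axes) over 30 MIX, MPB and TCS rats, after group and kit were removed, on a colour scale between 0 and 1. All 45 pairs lie between 0.71 and 0.97, the lowest being Slc44a4 with Tnfrsf21.

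Outside the 10, the genes most like their mean over these 30 rats were Folr1, a folate receptor (r = 0.97), Zdhhc9, a palmitoyltransferase (0.97), Tmem59 (0.97), Slc31a1, a copper transporter (0.97), Wfdc2, a secreted protein of glandular epithelia (0.97), Tmem30b (0.96), Plet1 (0.96), Cblc, a ubiquitin ligase (0.96), Arl1, a Golgi GTPase (0.96), and Csn1s2b, a casein (0.95). The median r over 13403 other genes was 0.09, and 494 of them exceeded 0.8. Most opposite were Arglu1 (-0.87) and Zcchc7 (-0.85). DEP minus control differences of Folr1 were -1.76 in parous and -0.93 in nulliparous rats, and its MIX minus control differences were -0.30 and -0.29.

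Epithelial marker RNA was summarised by a score, with none of the 10 genes in it. This was the mean of centred log2 signals over 17 measured genes among 18 listed, such as Cdh1, Krt8 and Elf5. Cell content itself was not measured. Over the 30 MIX, MPB and TCS rats, with group and kit removed, every gene correlated with this score. Residuals were permuted freely over the 30 rats, although parous groups were more widely spread, so the permutation p-values are approximate. Pearson's r ran between 0.68 (Tnfrsf21, adjusted p = 6.0e-05) and 0.94 (Duoxa1, adjusted p = 1.2e-05), and Spearman's rho between 0.64 (Tnfrsf21, adjusted p = 2.0e-04) and 0.92 (Slc44a4, adjusted p = 1.1e-05), by permutation tests with 100000 resamples adjusted over the 10 genes, where 1.0e-05 is the smallest p before adjustment. Such correlations were not particular to the 10, since 1013 of 13386 genes outside them and the score (7.57%) had an r of at least 0.68, their lowest, and 77 an r of at least 0.87, their median. Without the 2 rats farthest from the median score, MPB_par_139 and TCS_par_239, r was 0.69 to 0.90. Within the 18 Promega rats it was 0.68 to 0.96, within the 12 Zymo rats 0.71 to 0.94, among the 15 parous rats 0.71 to 0.95, and among the 15 nulliparous rats 0.47 to 0.89.

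**Figure D5:**
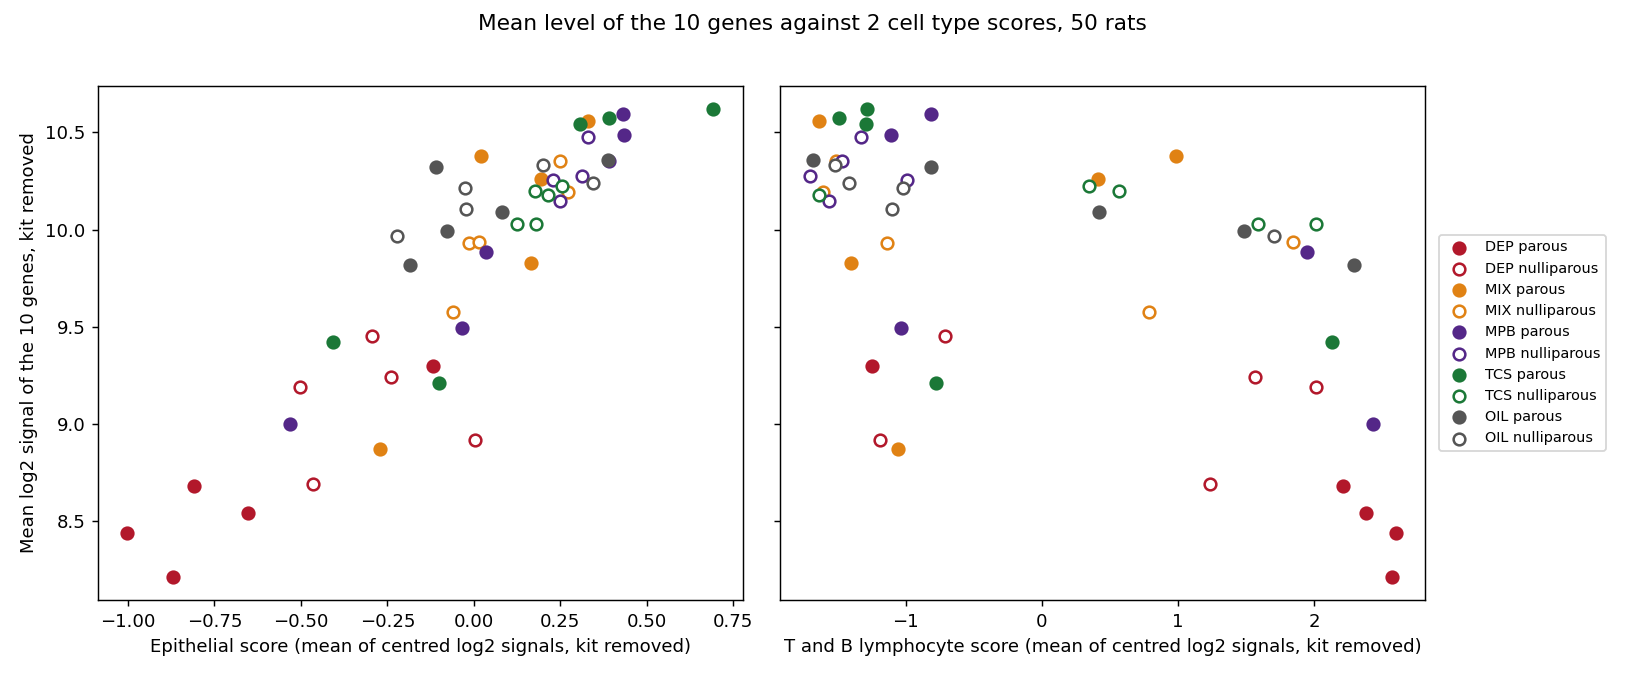
Mean log2 signal of the 10 genes (y axis) in each of 50 rats against the epithelial score (left) and the T and B lymphocyte score (right), both with the kit difference removed (x axes); colours are treatments, filled points parous and open points nulliparous rats. Most rats with low means have epithelial scores below 0, such as MIX_par_339 at 8.87 and -0.27, with DEP_null_27 at 8.92 and 0.0037 as an exception, while low rats are found at both ends of the lymphocyte score.

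The epithelial markers were mostly lower with DEP as well. DEP calls of this and the other lists use the same DEP and control rats that chose the 10 genes. Epithelial markers also varied with the 10 genes, so their calls are no separate support. Of the 17, 11 were called lower and 0 higher in parous DEP rats, with a median of -0.68, beside 5.53% of all genes called lower and 2.09% called higher. In nulliparous DEP rats 5 were called lower and 0 higher, with a median of -0.34, beside 2.4% and 0.149% of all genes. The epithelial score was also used as a covariate. DEP minus control differences of the 10 genes were then -0.90 to -0.14 in parous and -0.73 to -0.40 in nulliparous rats. Nothing is read from their sign, since the DEP signals chose the genes. Milk protein genes gave r of 0.71 to 0.84 with the 10 genes over the 30 rats, and hormone-sensing luminal genes 0.78 to 0.86. Of 8 milk protein genes, 5 were called lower in parous and 0 in nulliparous DEP rats, with medians of -0.69 and -0.37. Of 6 hormone-sensing luminal genes, 4 (Pgr, Wnt4, Cited1 and Tbx3) were called lower and 1, Tnfsf11, higher (0.83) in parous DEP rats, and 1, Wnt4, lower in nulliparous DEP rats, with medians of -0.83 and -0.63. Of 5 basal epithelial genes 0 were called in either parity, with medians of -0.23 and -0.04, and their score had r of -0.31 to 0.22 with the 10 genes. None of these lists had a called gene in MIX against MPB and TCS rats. The epithelial score itself differed by -0.15 in nulliparous MIX rats (exact permutation p = 0.0217, adjusted p = 0.52 over 24 tests, two-sided) and by -0.03 in parous MIX rats (exact permutation p = 0.86).

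None of the T and B lymphocyte genes passed the test with DEP. Their DEP minus control differences were above 0 for 10 of 10 measured genes, with medians of 1.36 in parous and 1.20 in nulliparous rats and 0 of 10 called, and the score of 4 of 5 parous DEP rats lay between 2.21 and 2.60, against -1.68 to 2.29 in parous controls. Over the 30 MIX, MPB and TCS rats the 10 genes had r of -0.54 (Duoxa1) to -0.09 (Tnfrsf21) with this score. MPB_par_139 and TCS_par_239 had high lymphocyte scores, 2.43 and 2.13, whereas MIX_par_339, MPB_par_137 and TCS_par_243 had low ones, -1.05, -1.04 and -0.78. TCS_par_243 also had a skeletal muscle score of 3.51 and MPB_par_137 one of 1.81, against a range of -0.87 to 0.80 in the other parous MIX, MPB and TCS rats, and high muscle scores also occurred with DEP (3.86 in DEP_par_41, 4.42 in DEP_null_27) and in OIL_null_431 (3.28). With the lymphocyte score as a covariate, chosen after the data were seen, DEP minus control differences were -1.48 to -1.06 in parous and -1.0 to -0.76 in nulliparous rats. Of 7 macrophage genes, 1 was called lower and 1 higher in parous DEP rats and 3 lower in nulliparous DEP rats. Their medians were -0.23 and -0.29. Of 7 fibroblast genes 0 were called, with medians of -0.38 in parous and -0.21 in nulliparous DEP rats. Of 8 adipocyte genes 1 was called higher, in nulliparous DEP rats. In the endothelial, skeletal muscle, nerve and keratinocyte lists 0 were called. The part of any of these cell types in the DEP and mixture values was not tested beyond the covariate fits.

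A wider list of partners and paralogs held 47 genes, of which 38 lay above the intensity minimum. In MIX against MPB and TCS rats 0 of 38 were called in either parity, with medians of -0.09 in both. With DEP, 7 were called lower and 2 higher in parous rats and 1 lower in nulliparous rats, beside 5.53% and 2.4% of all genes called lower. These calls, too, use the rats that chose the 10 genes. The lower ones in parous rats were Slc44a3 (-1.37), a relative of Slc44a4, Crb3 (-1.28), an apical polarity protein, Marveld2 (-0.82) and Marveld3 (-0.69) of tight junctions, Duoxa2 (-0.78) and Duox1 (-0.68), the factor and the oxidase next to Duoxa1, and Slc44a1 (-0.76). Rab27a (0.63) and Tnfrsf1b (0.64) were the higher ones. Slc44a3 was also the one called lower in nulliparous rats (-0.73). Aldoa, the ubiquitous aldolase, had group means between 9.95 and 10.09.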

How the data were processed

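RNA of 50 rat mammary glands was measured on Affymetrix rat gene arrays, 1 array per rat. The deposited values are log2 signals that the authors made with RMA in Affymetrix Expression Console, per the submitters' processing notes, which also name R 3.0.2. The methods describe a ComBat step for the batches, and a kit difference was still present in the deposited values, so RNA kit was kept as an additive term. Of 36685 probesets, 18511 named 1 gene, 575 named several and 17599 none. The probeset with the highest mean was kept for each of 18166 genes (291 had several). Genes whose mean in at least 1 of the 10 groups lay above the 30th percentile (6.32) were tested, which left 13413. One limma model (limma 3.58.1, R 4.3.3) held 10 group means and kit, with 39 residual degrees of freedom, Benjamini-Hochberg adjustment over all 13413 genes, and genes were called where the adjusted p was under 0.25 and the change was 1.5-fold or more. Intervals are 95%. The fit was tested on simulated data. Correlations and exact permutation tests used Python 3.11.15 and scipy 1.17.1. Arrays give no read depth, and 5 rats per group limit the precision.

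The 10 genes, the marker lists and the partner list were chosen with earlier results of these data known. Every gene of the 10 was to be named, with the 10 most like and the most opposite genes by Pearson's r with their mean. DEP against control values chose the genes and are descriptions, and comparisons of MIX, MPB or TCS with controls share those control rats. Alternatives were no kit term, each kit alone, the compared groups alone, other filters, another threshold, another variance estimate, another probeset choice, an epithelial or lymphocyte score as covariate, and leaving out each rat.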

Additional observations from a re-analysis of the deposited data

Results flagged for a closer look

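Of 100 sets of 5 rats, 1 for each gene in each group, 5 held a rat far from the others by Dixon's ratio of gap to range, and chance gives about 1 in 20. MIX_par_339 lay far below the rest of its group for 3 genes. It read 7.54 for Rnf128, where the nearest rat read 8.92 (ratio 0.735), 9.85 for Duoxa1, where the nearest read 10.83 (0.825), and 9.98 for Aldoc, where the nearest read 11.37 (0.804). DEP_par_38 was high for Duoxa1, at 10.08, where the nearest read 9.18 (0.79). OIL_null_429 was low for C14h4orf19, at 8.33, where the nearest read 9.05 (0.794). These 5 values are log2 signals with the kit difference removed.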

How the results depend on the processing

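Calls among the 10 genes were 0 in all 9 comparisons that left out DEP, and stayed 0 under every alternative run, except that with Promega rats alone 1 gene, Kcnk1, was called in parous MIX against MPB and TCS rats (0.70, adjusted p = 0.199). Leaving out each rat gave 0 calls throughout. The DEP median over the 10 genes was -0.48 in parous and -0.62 in nulliparous rats with the epithelial score as covariate, against -1.51 and -1.07 without it, and -1.72 to -1.38 and -1.16 to -0.98 when each rat was left out. The parous MIX against MPB and TCS median was -0.17 without MIX_par_338 and 0.30 without MIX_par_339, and the nulliparous one was -0.32 without MIX_null_327 and -0.13 without MIX_null_328. Against controls, the parous MIX median was 0.15 without MIX_par_339, the parous MPB median -0.04 without MPB_par_139, and the parous TCS median 0.19 without TCS_par_243. With the epithelial score the nulliparous MIX against MPB and TCS median was -0.03, and the nulliparous MPB against control median -0.21. Counted together were differences of single genes, medians over the 10 genes in comparisons without DEP, correlations and score tests. Of their values under alternatives, 726 were unchanged, 32 moved by more than the spread between rats and 1, the Kcnk1 value, gained a call. Differences and medians counted as unchanged if they moved by less than that spread, and correlations if they kept their sign. Score tests did so unless they gained an exact permutation p under 0.05, so a lost one counted as unchanged. The lymphocyte covariate was chosen after seeing the data. No paired analysis was possible because the replicate numbers are rat numbers that no groups share. The cause of these shifts was not tested.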
